A study of Mus musculus with 9 samples.

Results

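The 47 genes described here make the enzymes, carriers and regulators by which cells keep peroxides, superoxide and reactive electrophiles low. They were taken by gene symbol from the 47643 genes counted in each library, and each of the 47 matched 1 Ensembl gene. The rule uses symbols and no measured value. Of the 47, 46 passed the filter of at least 100 reads over all libraries and were tested, and Gsta2, a glutathione transferase, had no read in any library.

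NRF2, the transcription factor encoded by Nfe2l2, is held at a low level by KEAP1, which delivers it for degradation, and accumulates when electrophiles or oxidants modify KEAP1. It pairs with small MAF proteins at antioxidant response elements and raises enzymes that make glutathione, attach glutathione to electrophiles, reduce thioredoxin and supply NADPH. In pancreatic ductal adenocarcinoma (PDAC), tumor cells depend on imported cystine as the source of the cysteine in glutathione.

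The alleles shared by all mice included Trp53 frt/+, Pdx1-Flp and R26 FSF-CreER/Dual, so that the Flp recombinase made from the Pdx1 promoter removed 1 Trp53 allele and labeled the same cells with GFP. KPYYF mice also carried Yap flox/flox, and KPF mice did not. Mice of both genotypes were given tamoxifen (TAM) after tumors had formed, which activates CreER in Flp-recombined cells, replaces GFP with tdTomato (Tm) and, in KPYYF cells, deletes Yap. RNA came from tumor cells of relapsed nodules, sorted by color: GFP+Yap+ cells of KPF mice gave 6 libraries, and Tm+Yap− cells of KPYYF mice gave 3. The labels give no age or sex. Genotype, Yap status, reporter color and recombination by Cre change together, so their effects cannot be told apart, and the labels name each library by a mouse number, of which KPF 4504h and KPF 4504s share one.

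Reads from the 3′ ends of transcripts were counted per gene, and 8116539 to 9635514 reads per library fell on genes. Levels are given as CPM, read counts scaled to a common library size with edgeR's TMM factors, and 3 reads correspond to 0.311 to 0.370 CPM before that scaling. Differences are log2 fold changes, KPYYF minus KPF, from edgeR's quasi-likelihood test over 14105 genes. A gene is called when its Benjamini-Hochberg adjusted p over these genes is under 0.05, and the study's own rule, an unadjusted p under 0.05 with a more than 2-fold difference, is given beside it. The rule is used here on edgeR's p unless stated otherwise, whereas the study's methods name DESeq2. With 6 and 3 libraries there are 84 ways to split them, so an exact permutation test of 1 gene, two-sided on log2 CPM, cannot go below 0.0119.

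Yap1 (ENSMUSG00000053110) was at 41.8 CPM in the lowest, 99.8 in the median and 151 in the highest KPF library, and at 0.712, 2.84 and 7.12 CPM in KPYYF 4449, 4891 and 4938. Every Tm+Yap− library lay below every GFP+Yap+ library, so the labels held for the deleted gene, and the groups differed by -4.79 (standard error 0.72, edgeR adjusted p = 0.0159) on the log2 scale. The adjusted p was 0.0553 without KPYYF 4891. Reads came from the 3′ end, and which exons are floxed is not given in the sources used here, so this checks the level of the transcript. The sorted cells differed in more than Yap1. Ductal epithelial markers (Epcam, Cldn4, Cldn7 and 4 keratins) summed to 2854 to 8966 CPM in KPF and to 461 to 1604 CPM in KPYYF libraries, with 7 of 7 lower and Krt18 called. Immune markers (10 genes) summed to 414 to 1332 CPM in 5 KPF libraries, 7891 CPM in KPF 4601 and 355 to 701 CPM in KPYYF libraries. Acinar markers (6 genes) summed to 19921 CPM in KPF 4504s and 5907 CPM in KPYYF 4449, against 68.6 to 992 CPM in the other libraries. Fibroblast markers (7 genes) summed to 404 to 5413 CPM in KPF and to 1103 to 3047 CPM in KPYYF libraries. Their members did not move together. Of the 7, 5 had a positive and 2 a negative log2 fold change, from -1.71 (Col1a2) to 2.90 (Pdgfra). Pdgfra was higher by the study's rule but not called (standard error 0.77, edgeR adjusted p = 0.105). Endothelial markers (6 genes) summed to 10.9 to 67.8 CPM against 10.5 to 14.96 CPM, islet markers (5 genes) to 0.511 to 36.9 CPM against 0.109 to 20.3 CPM, and erythroid markers (5 genes) to 13.6 to 260.5 CPM against 23.3 to 110.9 CPM. Of 4 Schwann cell markers, the defining gene Sox10 had no read in any library, while S100b, which other cells also make, brought the sum to 18.1 to 97.0 CPM in KPF and 0.547 to 7.36 CPM in KPYYF libraries. Xist, made only from an inactive X chromosome, had 71 to 159 reads in KPF 4269, 4515 and 4601 and 3452 to 16108 in the other 6 libraries.

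NRF2 and its small MAF partners read the antioxidant response element, whose core was searched for as TGACNNNGC on both strands of the promoters in RefSeq (GRCm38.p6, 250 bases before to 50 after each start). The table held 50 promoters for 41 of the 47 genes. None was held for Gclc, Gsr, Hmox1, Gsta4, Prdx6 or Sod3. The core was found in 11 of 41 members (26.8%), against 14.0% of all 27025 genes in the table: Nfe2l2, Gclm, Gsta3, Gstm5, Mgst1, Txnrd1, Srxn1, Prdx1, Sod1, G6pdx and Pgd. Of the 10 members with a promoter that were lower in KPYYF libraries by the study's rule, 2 held it (20%), and of the other 31 members 9 did (29.0%). GGAATG, the core letters bound by the TEAD partners of Yap, was searched for on both strands as well, its end letters TG can also begin the other core, and it was found in Gpx8 and Gstm2, 2 of 41 members (4.88%), against 16.6% of all genes. The 5 promoters printed here run 5′ to 3′ on the + strand, with the core in capitals. Gpx3 (chr11:54902604-54902903) is the called member and held no core. Gsta3 (chr1:21240335-21240634) and Mgst1 (chr6:138140277-138140576) are the members that held a core and were lower by the study's rule, at 121 bases and, on the − strand, 56 bases before the start. Prdx1 (chr4:116685349-116685648) and Txnrd1 (chr10:82858956-82859255) held a core on the − strand, 133 and 92 bases before the start, and differed less between the groups. Mgst1 and Txnrd1 also have promoters in the table that held no core. A match is a run of letters, not a shown binding site, and bases outside these promoters were not searched.
Gpx3: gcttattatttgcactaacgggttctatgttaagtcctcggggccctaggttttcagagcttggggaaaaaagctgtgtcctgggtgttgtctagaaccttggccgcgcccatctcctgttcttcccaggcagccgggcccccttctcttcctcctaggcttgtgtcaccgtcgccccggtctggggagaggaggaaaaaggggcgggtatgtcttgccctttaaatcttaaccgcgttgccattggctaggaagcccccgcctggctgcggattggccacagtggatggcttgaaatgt
Gsta3: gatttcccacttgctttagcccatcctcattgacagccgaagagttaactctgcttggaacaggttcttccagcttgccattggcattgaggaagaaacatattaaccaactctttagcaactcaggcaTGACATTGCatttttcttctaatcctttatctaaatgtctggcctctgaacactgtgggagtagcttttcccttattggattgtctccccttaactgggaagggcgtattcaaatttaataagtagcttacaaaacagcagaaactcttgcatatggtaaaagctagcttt
Mgst1: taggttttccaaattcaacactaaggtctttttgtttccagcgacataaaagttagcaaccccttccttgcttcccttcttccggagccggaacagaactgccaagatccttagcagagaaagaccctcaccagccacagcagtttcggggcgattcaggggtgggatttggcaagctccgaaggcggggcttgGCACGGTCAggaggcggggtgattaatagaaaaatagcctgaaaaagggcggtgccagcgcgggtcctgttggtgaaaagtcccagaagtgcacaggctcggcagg
Prdx1: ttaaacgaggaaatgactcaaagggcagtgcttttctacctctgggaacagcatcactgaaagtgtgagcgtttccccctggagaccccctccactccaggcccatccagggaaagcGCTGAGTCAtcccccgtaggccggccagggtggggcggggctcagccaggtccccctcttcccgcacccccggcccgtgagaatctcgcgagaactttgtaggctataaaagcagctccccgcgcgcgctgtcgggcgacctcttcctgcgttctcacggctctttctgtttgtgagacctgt
Txnrd1: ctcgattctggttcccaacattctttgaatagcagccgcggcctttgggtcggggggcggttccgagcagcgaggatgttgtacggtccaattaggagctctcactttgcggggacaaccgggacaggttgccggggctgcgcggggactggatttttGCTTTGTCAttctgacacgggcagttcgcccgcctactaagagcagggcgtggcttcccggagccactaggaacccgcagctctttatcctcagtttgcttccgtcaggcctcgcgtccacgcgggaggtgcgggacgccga

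Across the 46 tested members, levels were on balance lower in Tm+Yap− cells, and of the 11 lower by the study's rule 6 were glutathione transferases and 2 glutathione peroxidases. Slc7a11, Sod3 and Taldo1 were the other 3, while Sod2 and Prdx4 were higher. Log2 fold changes were negative for 38 members (82.6%) and positive for 8, with a median of -0.47, while 53.3% of all 14105 genes were negative, with a median of -0.07. Gpx3 alone was called lower, 2.17% of the members, where 0.794% of all genes were called lower (112 genes). No member was called higher by edgeR, where 0.305% of all genes were (43 genes), although 2 members had a positive difference with an unadjusted p under 0.05 and the DESeq2 Wald test called 1, Sod2, where it called 1.96% of the 13748 genes it gave an adjusted p higher and 6.75% lower. By the study's rule, 11 members were lower (23.9%, against 9.2% of all genes) and 2 were higher (4.35%, against 4.2%). Every KPYYF library lay below every KPF library for 7 members (15.2%, against 5.18% of all genes) and above for 2 (4.35%, against 3.92%). A gene reaches 100 reads more easily where 1 group is high, so these shares describe the list only. In cells pooled for RNA, fewer cells that make a transcript and less transcript per cell cannot be told apart.

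**Figure D1:**
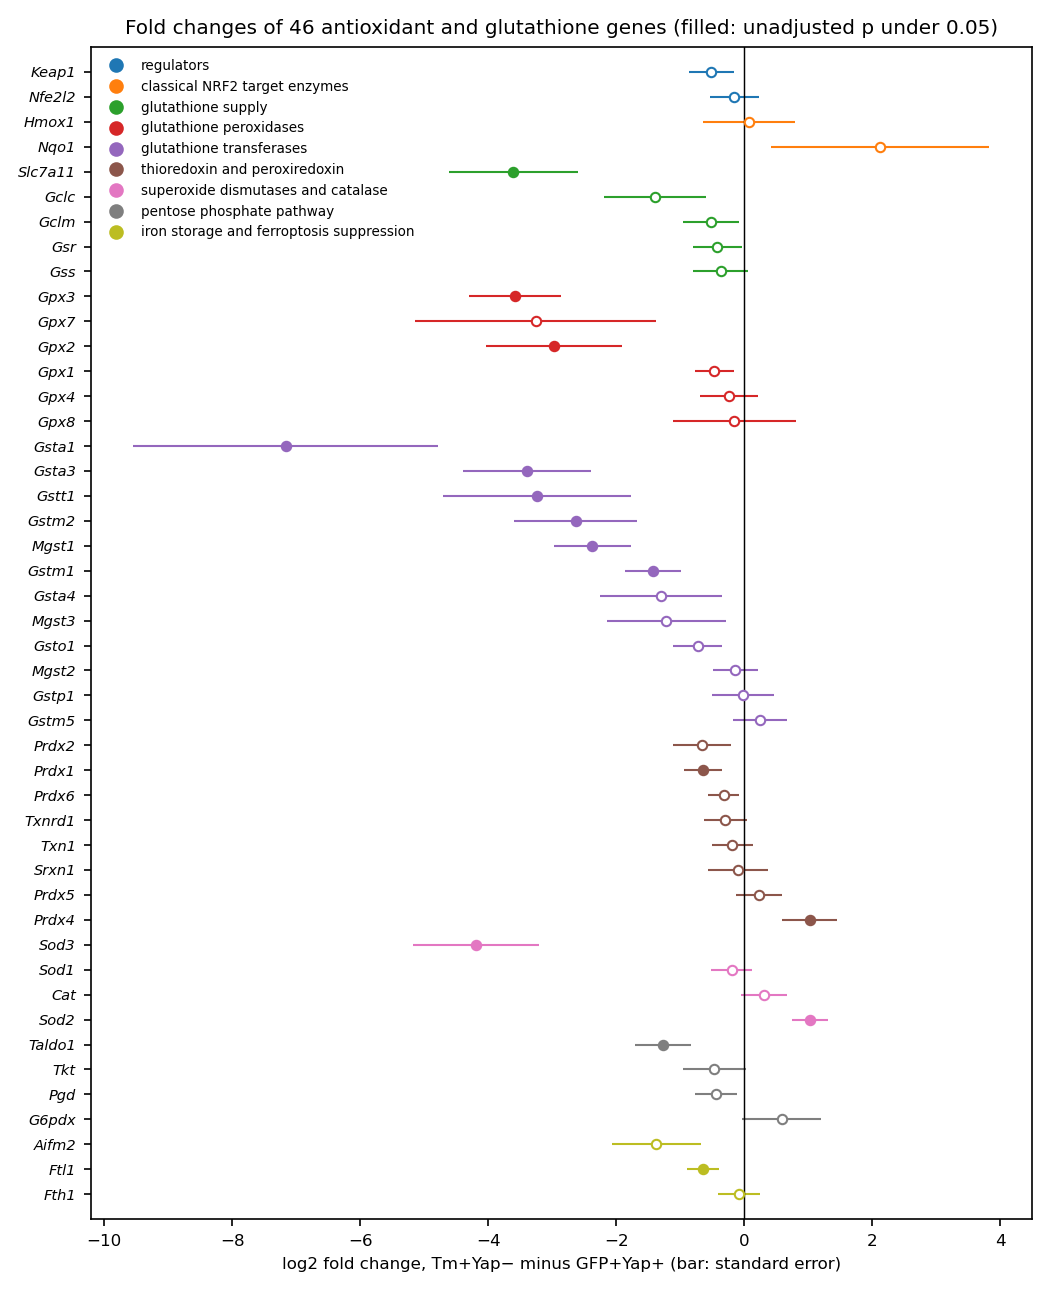
Log2 fold change, KPYYF minus KPF, of the 46 tested members on the x axis, grouped by role and ordered within each group, with bars of 1 standard error from edgeR; filled points have an unadjusted p under 0.05. Of the 46, 38 lie left of 0, and the points farthest left are Gsta1, Sod3, Slc7a11, Gpx3 and Gsta3.

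The levels of the regulators overlapped between the groups, and neither was called. Nfe2l2 (ENSMUSG00000015839), which encodes NRF2, was at 109 CPM in the lowest, 156 in the median and 285 in the highest KPF library, and at 69.6, 207 and 181 CPM in the KPYYF libraries. The ranges overlapped, and the log2 fold change was -0.16 (standard error 0.39, edgeR adjusted p = 0.895). Its highest level was in KPF 4601, the library with the highest immune sum, and the value was 0.08 without that library and 0.19 without KPYYF 4449. Keap1 (ENSMUSG00000003308) was at 86.6 CPM in the lowest, 101 in the median and 204 in the highest KPF library, and at 55.2, 103 and 95.3 CPM in the KPYYF libraries. Keap1 differed by -0.52 (standard error 0.35, edgeR adjusted p = 0.512), and 2 of the 3 KPYYF libraries lay within the KPF range.

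Nqo1 and Hmox1, enzymes often read as signs of NRF2 activity, were low and varied by library. Nqo1, a quinone reductase, was at 0 CPM in the lowest, 0.650 in the median and 3.43 in the highest KPF library, and at 0, 14.8 and 1.10 CPM in the KPYYF libraries. Only KPYYF 4891 lay above the KPF range, Nqo1 differed over all libraries by 2.12 (standard error 1.70, edgeR adjusted p = 0.595), and without that library Nqo1 did not reach 100 reads and was not tested. Hmox1, the heme oxygenase that opens the heme ring, was at 3.89 CPM in the lowest, 9.98 in the median and 44.8 in the highest KPF library, and at 14.96, 27.3 and 11.7 CPM in the KPYYF libraries. Hmox1 had a log2 fold change of 0.07 (standard error 0.72, edgeR adjusted p = 0.979), with KPF 4601 highest, and the sign turned in 5 of the 9 fits that each left out a library.

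Of the genes that supply glutathione, all 5 had a negative log2 fold change (median -0.53), and only the cystine carrier passed the study's rule on edgeR's p. Slc7a11 (ENSMUSG00000027737, chromosome 3, 49892526 to 50443614) encodes the light chain of the exchanger that brings in cystine. It was at 6.04 CPM in the lowest, 40.7 in the median and 119.8 in the highest KPF library, and at 0.594, 8.53 and 3.07 CPM in the KPYYF libraries. All 3 KPYYF libraries lay below 5 of the 6 KPF libraries, while KPF 4504s, with the highest acinar sum, lay at 6.04 CPM, below KPYYF 4891. Slc7a11 differed by -3.61 (standard error 1.00, edgeR adjusted p = 0.116), and the exact permutation p was 0.0238. The value stayed between -4.75 and -3.10 when any 1 library was left out. Gclc, the catalytic subunit of the enzyme that joins glutamate to cysteine, was at 39.5 CPM in the lowest, 89.7 in the median and 489 in the highest KPF library, and at 30.3, 56.1 and 86.5 CPM in the KPYYF libraries. Gclc differed by -1.40 (standard error 0.80, edgeR adjusted p = 0.434), and by -0.56 without KPF 4269, its highest library. With the DESeq2 Wald test Gclc was lower by the rule, as were 12.04% of all genes. Gclm, the modifier subunit of the same enzyme, was at 29.9 CPM in the lowest, 51.6 in the median and 95.7 in the highest KPF library, and at 54.4, 24.3 and 34.4 CPM in the KPYYF libraries. Gclm differed by -0.53 (standard error 0.44, edgeR adjusted p = 0.607), with overlapping ranges. Glutathione synthetase (Gss) ranged over 37.3 to 128 CPM in KPF and 27.7 to 75.4 CPM in KPYYF libraries, and glutathione reductase (Gsr), which returns oxidized glutathione to its reduced form with NADPH, over 98.2 to 207 CPM and 50.6 to 168 CPM. Gss and Gsr had log2 fold changes of -0.37 and -0.43.

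The glutathione peroxidases, most of which use glutathione to reduce peroxides, were all 6 on the negative side (median -1.72), and they held the called member. Gpx3 (ENSMUSG00000018339, chromosome 11, 54902453 to 54910377), the secreted peroxidase, fell in the Tm+Yap− libraries, to 5.39 ± 4.45 CPM (SD, n = 3), against 64.6 ± 34.3 CPM (SD, n = 6) in the GFP+Yap+ libraries. Its KPF libraries 4269, 4435, 4504h, 4504s, 4515 and 4601 had 16.2, 38.3, 54.1, 103, 97.3 and 78.6 CPM, and its KPYYF libraries 3.92, 10.4 and 1.86 CPM. No KPYYF library reached the lowest KPF library. Gpx3 had a log2 fold change of -3.58 (standard error 0.72, edgeR adjusted p = 0.0357), 11.95-fold lower, with an exact permutation p of 0.0119, the smallest these libraries can give. The call rested on nearly every library. Among the fits without 1 library, Gpx3 kept an adjusted p under 0.05 only without KPF 4269 (0.0276). It had 0.0511 to 0.110 when any 1 of the other 8 was left out. The log2 fold change stayed between -4.48 and -3.17 in these fits. Counting KPF 4504h and 4504s as 1 library also lost the call, with -3.505 and an edgeR adjusted p of 0.0522. The permutation test took KPF 4504h and 4504s as separate, although their labels carry the same mouse number. Beside the Gpx3 difference, the ductal marker sum was also without overlap between the groups, and its part in the difference was not tested. Gpx2 (ENSMUSG00000042808, chromosome 12, 76792333 to 76795554), the peroxidase of gut epithelium, was at 1.95 CPM in the lowest, 62.1 in the median and 167 in the highest KPF library, and at 10.9, 7.44 and 7.45 CPM in the KPYYF libraries. The KPYYF values lay close together, below all KPF libraries but KPF 4269 at 1.95 CPM. Gpx2 differed by -2.97 (standard error 1.06, edgeR adjusted p = 0.198). Gpx4, which reduces lipid peroxides in membranes and restrains ferroptosis, was at 26.4 CPM in the lowest, 59.2 in the median and 87.5 in the highest KPF library, and at 75.99, 29.6 and 32.99 CPM in the KPYYF libraries. Gpx4 had a log2 fold change of -0.24 (standard error 0.45, edgeR adjusted p = 0.859), and 83.4% of the 50-base words in the last 300 bases of its transcripts also occur in the pseudogene Gpx4-ps2, while reads without a unique alignment were not counted. Gpx1, the main cytosolic peroxidase, ranged over 747 to 1827 CPM in KPF and 749 to 1073 CPM in KPYYF libraries, with -0.47 on the log2 scale. Gpx7 and Gpx8, which act in the endoplasmic reticulum, had log2 fold changes of -3.26 (standard error 1.89) and -0.16 (standard error 0.96), with Gpx7 at 0 to 11.5 CPM and 0 to 0.767 CPM.

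Glutathione transferases, which couple glutathione to electrophiles, held 6 of the 11 members lower by the study's rule. Of 12 tested, 11 had a negative log2 fold change (median -1.37), where 53.3% of all genes were negative. For 4 (33.3%) every KPYYF library lay below every KPF library, against 5.18% of all genes. By the study's rule 6 (50%) were lower, against 9.2% of all genes. None was called by edgeR, and 5 were called lower by the DESeq2 Wald test, which called 6.75% of all genes lower. The mean log2 CPM of the 12 lay between 4.09 and 5.87 in the KPF libraries and was 3.56, 3.22 and 2.86 in KPYYF 4449, 4891 and 4938. Mgst1 (ENSMUSG00000008540, chromosome 6, 138140316 to 138156755), a membrane-bound transferase with peroxidase activity, was at 32.7 CPM in the lowest, 72.2 in the median and 170.1 in the highest KPF library, and at 11.04, 7.65 and 27.5 CPM in the KPYYF libraries. Mgst1 differed by -2.38 (standard error 0.60, edgeR adjusted p = 0.0829), 5.19-fold lower, and no KPYYF library reached a KPF library. Gstm1 (ENSMUSG00000058135, chromosome 3, 108012255 to 108017973), a cytosolic transferase of the mu class, was at 39.2 CPM in the lowest, 64.4 in the median and 129.6 in the highest KPF library, and at 17.6, 36.96 and 25.5 CPM in the KPYYF libraries. Its groups did not overlap either, the gap being only from 36.96 to 39.2 CPM, and Gstm1 differed by -1.43 (standard error 0.43, edgeR adjusted p = 0.127). Gstm2 (ENSMUSG00000040562, chromosome 3, 107981702 to 107986453), its neighbor in the mu cluster, was at 13.6 CPM in the lowest, 20.3 in the median and 58.2 in the highest KPF library, and at 9.02, 4.48 and 0.110 CPM in the KPYYF libraries. Gstm2 differed by -2.64 (standard error 0.96, edgeR adjusted p = 0.193), and by -2.06 to -3.61 with any 1 library left out. Both mu genes had an exact permutation p of 0.0119. Gsta3 (ENSMUSG00000025934, chromosome 1, 21240589 to 21265661), an alpha class enzyme also known for a step of steroid synthesis, was at 3.59 CPM in the lowest, 17.4 in the median and 37.8 in the highest KPF library, and at 2.73, 1.97 and 0.329 CPM in the KPYYF libraries. The highest KPYYF library lay just below the lowest KPF library, and Gsta3 differed by -3.39 (standard error 1.00, edgeR adjusted p = 0.119). Gstt1 (ENSMUSG00000001663, chromosome 10, 75783813 to 75798584), of the theta class, was at 0.613 CPM in the lowest, 13.6 in the median and 24.5 in the highest KPF library, and at 3.80, 0 and 0.110 CPM in the KPYYF libraries. KPYYF 4449 lay above KPF 4504h, and Gstt1 differed by -3.24 (standard error 1.47, edgeR adjusted p = 0.297), by -7.50 without KPYYF 4449 and by -2.66 without KPYYF 4891. Gsta1 (ENSMUSG00000074183, chromosome 9, 78230656 to 78242684), of the alpha class, was read mainly in 3 of the GFP+Yap+ libraries. It had 431 reads over the 6 KPF libraries, with 77, 237 and 108 in KPF 4269, 4435 and 4515. Its highest level was 24.3 CPM, in KPF 4435. KPF 4504h, 4504s and 4601 had 0, 8 and 1 reads (0, 0.911 and 0.146 CPM), and the 3 KPYYF libraries had 1 read in sum. Pooled reads per pooled, unscaled depth had a ratio of 198, KPF over KPYYF. Its 95% exact interval of 35.4 to 7840 covers counting error only, not the spread between libraries. Gsta1 had a log2 fold change of -7.17 (standard error 2.38), which depends on the prior count at such levels, and its exact permutation p was 0.0833; 82.1% of its end words are shared with Gsta2, Gm3776 and Gm10639.

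The remaining transferases did not pass the rule. Gsta4, which clears 4-hydroxynonenal from lipid peroxidation, was at 37.2 CPM in the lowest, 193 in the median and 368 in the highest KPF library, and at 207, 27.01 and 8.0 CPM in the KPYYF libraries. Only KPYYF 4891 and 4938 lay below the KPF range, and Gsta4 differed by -1.31 (standard error 0.95), by -3.51 without KPYYF 4449 and by -0.77 without KPYYF 4938. Mgst3, a related membrane enzyme, spread the same 3 libraries in another order, at 0.475, 10.9 and 33.4 CPM against 12.5 to 66.4 CPM in KPF libraries, with -1.22 on the log2 scale. Gsto1, of the omega class, and Mgst2 had log2 fold changes of -0.73 and -0.14. Gstm5 was the only tested transferase on the positive side, with 0.24, and had -0.20 without KPYYF 4891. Gstp1, the pi class enzyme, had -0.02, with 76.7% of its end words shared with Gstp2 and a pseudogene. For Gsta2, 0 reads in each library allow up to 3 reads, 0.311 to 0.370 CPM before scaling. The ductal marker sum, 2854 to 8966 CPM in KPF and 461 to 1604 CPM in KPYYF libraries, moved with the transferases, and its part was not tested.

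**Figure D2:**
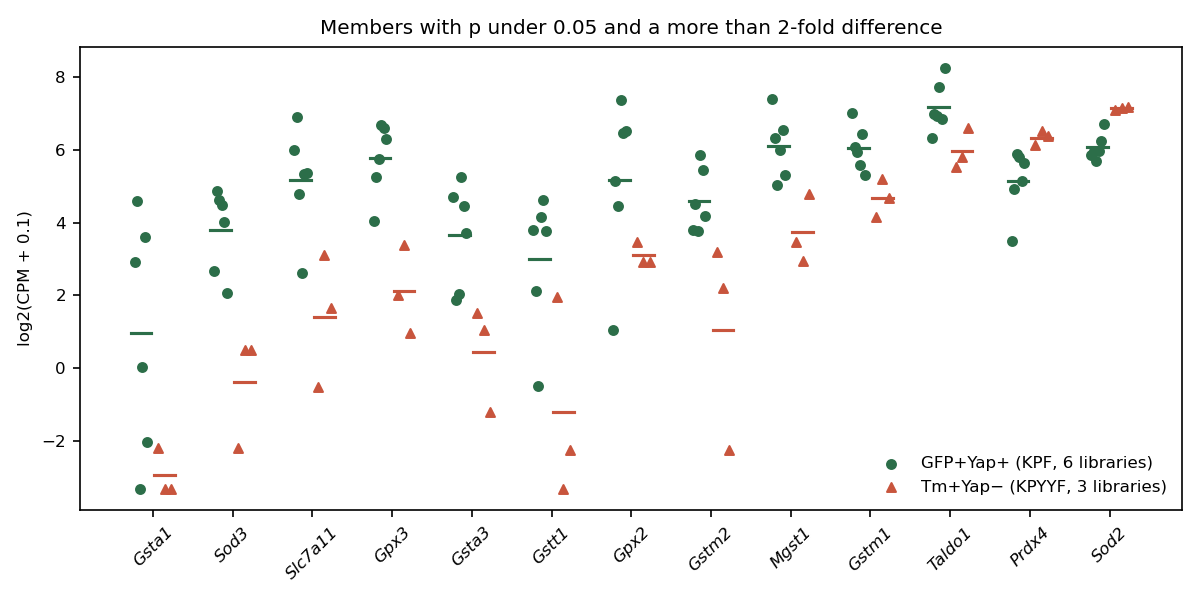
Log2(CPM + 0.1) in each library of the 13 members past the study's rule, green circles for the 6 GFP+Yap+ libraries, red triangles for the 3 Tm+Yap− libraries and bars for the mean of the plotted values in each group. Sod2 and Prdx4 are the members whose triangles lie above all circles, while the triangles of Gpx3, Gsta3, Gstm1, Gstm2, Mgst1 and Sod3 lie below all circles.

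Of the thioredoxin and peroxiredoxin genes, which reduce disulfides and peroxides through reactive cysteines, 1 of 8 was higher and 0 of 8 lower by the study's rule, and the median log2 fold change was -0.24. Prdx4 (ENSMUSG00000025289, chromosome X, 155323918 to 155340754), the peroxiredoxin of the endoplasmic reticulum that feeds disulfide formation, was at 11.2 CPM in the lowest, 42.7 in the median and 59.2 in the highest KPF library, and at 69.8, 91.3 and 83.2 CPM in the KPYYF libraries. All 3 KPYYF libraries lay above all KPF libraries, and Prdx4 was 2.03-fold higher, a log2 fold change of 1.02 (standard error 0.43, edgeR adjusted p = 0.256), with an exact permutation p of 0.0476. Prdx4 is X-linked, and 3 KPF libraries had few Xist reads. With only the 6 libraries of over 1000 Xist reads its value was still positive, as in each of the 18 alternatives (0.77 to 1.39), but it no longer passed the rule there. Prdx1, the abundant cytosolic peroxiredoxin whose promoter holds a core, ranged over 559 to 1049 CPM in KPF and was 326, 468 and 642 CPM in KPYYF libraries. Prdx1 had a log2 fold change of -0.65 (standard error 0.29, edgeR adjusted p = 0.290), with an unadjusted p of 0.0441 and 31.8% of its end words shared with other genes. Txnrd1, the reductase that recharges thioredoxin and whose promoter also holds a core, was at 79.1, 75.01 and 83.8 CPM in KPYYF libraries, inside the KPF range of 59.3 to 172 CPM. Txnrd1 differed by -0.30 (standard error 0.33). Srxn1, which repairs overoxidized peroxiredoxins, was highest in KPF 4601 (105 CPM) and had -0.11, or 0.26 without that library. Txn1, Prdx2, Prdx5 and Prdx6 had log2 fold changes of -0.19, -0.66, 0.22 and -0.32, with overlapping groups.

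Of the superoxide dismutases, which turn superoxide into hydrogen peroxide, the extracellular form was lower and the mitochondrial form higher in Tm+Yap− libraries by the study's rule, and neither was called. Sod3 (ENSMUSG00000072941, chromosome 5, 52363791 to 52371418), the extracellular form, was at 4.08 CPM in the lowest, 19.1 in the median and 29.3 in the highest KPF library, and at 0.119, 1.31 and 1.32 CPM in the KPYYF libraries. Sod3 differed by -4.20 (standard error 0.98, edgeR adjusted p = 0.0620), 18.4-fold lower, without overlap, and its exact permutation p was 0.0119. The Sod3 reads were few, 1, 12 and 12 in the KPYYF libraries. Sod2 (ENSMUSG00000006818, chromosome 17, 13006846 to 13040063), the mitochondrial form, was at 51.5 CPM in the lowest, 62.5 in the median and 104 in the highest KPF library, and at 137, 142 and 144 CPM in the KPYYF libraries. The KPYYF values had a mean of 141 ± 3.73 CPM (SD, n = 3) and lay above every KPF library, of which KPF 4601 came nearest. Sod2 was 2.04-fold higher, a log2 fold change of 1.03 (standard error 0.28, edgeR adjusted p = 0.0952). Without KPF 4601, Sod2 and Sod3 both had an adjusted p under 0.05. Sod1, the cytosolic form, ranged over 276 to 646 CPM and 304 to 559 CPM, with -0.20 on the log2 scale, and catalase (Cat), which splits hydrogen peroxide in peroxisomes, over 25.3 to 72.7 CPM and 54.4 to 64.1 CPM, with 0.31.

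The pentose phosphate pathway supplies NADPH for glutathione and thioredoxin reduction. Taldo1 (ENSMUSG00000025503, chromosome 7, 141392199 to 141402968), transaldolase of its non-oxidative branch, was at 80.8 CPM in the lowest, 124 in the median and 305 in the highest KPF library, and at 45.7, 55.8 and 96.7 CPM in the KPYYF libraries. KPYYF 4938 lay within the KPF range, and Taldo1 differed by -1.28 (standard error 0.44, edgeR adjusted p = 0.168). KPF 4601 was its highest library, and without it the value was -0.97 and no longer past 2-fold. G6pdx, the X-linked entry enzyme, was at 3.21 CPM in the lowest, 14.99 in the median and 37.6 in the highest KPF library, and at 25.8, 21.9 and 28.3 CPM in the KPYYF libraries. G6pdx had a log2 fold change of 0.58 (standard error 0.61, edgeR adjusted p = 0.710), or 1.00 without KPF 4601. Pgd, which makes NADPH at a later step, and Tkt, transketolase, had -0.44 and -0.47, and both were also highest in KPF 4601.

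Of the 3 genes of iron storage and ferroptosis suppression, all had a negative value. Ftl1, the ferritin light chain, ranged over 514 to 832 CPM in KPF and was 429.6, 448 and 493 CPM in KPYYF libraries, without overlap, and differed by -0.64 (standard error 0.25, edgeR adjusted p = 0.219). Of its end words 79.2% occur in 14 other genes or pseudogenes, so its level is uncertain. Fth1, the heavy chain, had -0.09 (standard error 0.33). Aifm2, which encodes FSP1, a reductase of coenzyme Q that limits lipid peroxidation, was at 7.99 CPM in the lowest, 18.6 in the median and 26.7 in the highest KPF library, and at 13.8, 1.75 and 5.04 CPM in the KPYYF libraries. Aifm2 differed by -1.38 (standard error 0.69, edgeR adjusted p = 0.356), with KPYYF 4449 inside the KPF range.

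**Figure D3:**
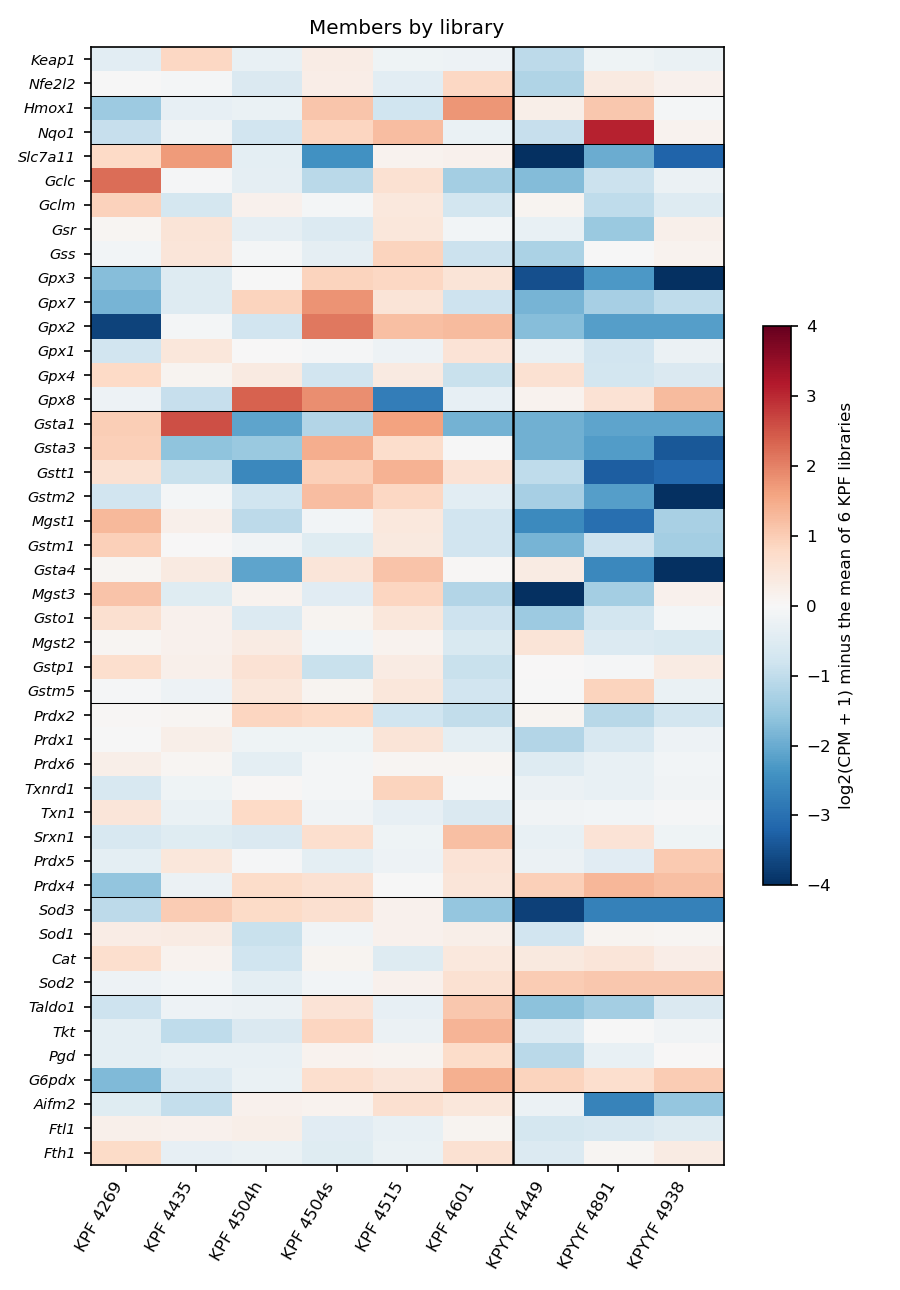
Log2(CPM + 1) of each tested member (rows, by role) in each library (columns), minus the mean of the 6 KPF libraries; red is above and blue below that mean, and colors end at 4 units. Blue runs through all 3 KPYYF columns for Gpx3, Mgst1, Gstm1, Gstm2 and Sod3, while Gsta4 and Mgst3 are blue in some KPYYF libraries only.

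A further 69 genes of the same pathways were examined beside the members, and 66 were tested. Of these, 24 had a positive and 42 a negative log2 fold change (63.6%, median -0.37), 1 was called lower and 0 higher (0.794% and 0.305% of all genes), and 7 were lower (10.6%) and 2 higher (3.03%) by the study's rule. The shares by the rule were near those of all genes, 9.2% lower and 4.2% higher. The DESeq2 Wald test called 7 of the 66, near the 8.71% of all genes it called in either direction. Osgin1 (ENSMUSG00000074063), an NRF2 target that slows growth under oxidative stress, was the called gene, at 10.5 CPM in the lowest, 28.1 in the median and 65.7 in the highest KPF library and at 1.90, 0.547 and 1.75 CPM in the KPYYF libraries. No KPYYF library came near a KPF library, and Osgin1 differed by -4.51 (standard error 0.82, edgeR adjusted p = 0.0249), 22.7-fold lower. Its adjusted p was above 0.05 without KPF 4435 (0.0585), KPYYF 4891 (0.0746) or KPYYF 4938 (0.0851). The next by p of those lower by the rule were Lpcat3, which puts polyunsaturated chains into phospholipids, with -1.48 (standard error 0.35, edgeR adjusted p = 0.0643), and 2 enzymes that make cytosolic NADPH, Idh1 with -1.16 (standard error 0.33, edgeR adjusted p = 0.116) and Me1 with -1.29 (standard error 0.38, edgeR adjusted p = 0.118). Each of these 3 had all KPYYF below all KPF libraries. Duox2, a peroxide-producing oxidase of ductal and gut surfaces, and its maturation factor Duoxa2 were at 1.84 to 48.05 CPM and 1.48 to 14.96 CPM in KPF and at 0 to 1.75 CPM and 0 to 0.356 CPM in KPYYF libraries. Duoxa2 had -5.70 and Duox2 -4.51 on the log2 scale, and edgeR adjusted p of 0.128 and 0.164. Mafk, a small MAF partner, was the other gene lower by the rule, with -1.53 (standard error 0.71). Higher by the rule were Glrx, a glutaredoxin that uses glutathione to reduce proteins, with 1.12 (standard error 0.46), and Dhodh, which reduces coenzyme Q in mitochondria, with 1.06 (standard error 0.48). Mafk, Glrx and Dhodh were picked out after their values were seen. Gstp2, Ncoa4 and Nox1 were under the filter.

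The rule held for 7 of the 11 lower members whichever library was left out, namely Slc7a11, Gpx3, Gsta1, Gsta3, Gstm1, Mgst1 and Sod3. Gpx2, Gstm2 and Gstt1 did not pass it without KPYYF 4891, Gpx2 and Gstt1 also without KPYYF 4938, and Gstt1 also without KPF 4269, 4504s, 4515 or 4601. Taldo1 did not pass without KPF 4601 or KPYYF 4449. Both higher members lay close to 2-fold, and neither passed without KPF 4269 or KPF 4435. Sod2 also missed the rule without KPF 4504h, and Prdx4 without KPYYF 4891 or KPYYF 4938.

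**Figure D4:**
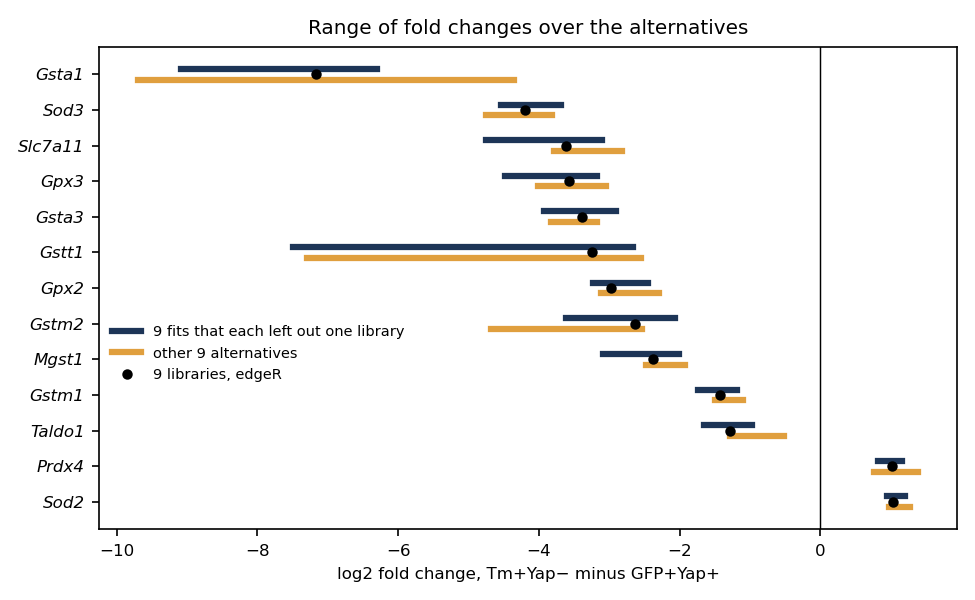
Log2 fold change on the x axis of the 13 members past the study's rule, as fitted over all 9 libraries (points), with the range over the 9 fits that each left out 1 library (blue) and over the other 9 alternatives (orange). All bars stay on 1 side of 0, and those of Gsta1 and Gstt1 are widest.

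Several members also share sequence or exons with other genes, which bears on their level. Of the 47, 4 had at least 50% of their end words in another gene (Gpx4, Gsta1, Gstp1 and Ftl1) and 13 had any. Exons of 3 members overlap another gene on the same strand and those of 9 a gene on the opposite strand, and whether strand was used in counting is not given in the sources used here.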

How the data were processed

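The authors deposited 9 tables of raw read counts per Ensembl gene, 1 for each library, without normalization. Per the labels, libraries were made with the Lexogen QuantSeq 3′ Fwd kit, and the submitters' processing notes name STAR, HTSeq and mm10, without versions. The study's methods describe BeadChip arrays analysed with DESeq2 after removing genes under 100 reads in sum, while the tables hold whole-number counts. Reads without a unique alignment, 43.8 to 48.5% of each KPF table and 49.2 to 53.4% of each KPYYF table, were left out. The groups did not overlap in this share, and its bearing on members with shared end words was not tested. An allele that all mice shared is not reported here. Symbols and positions came from GENCODE release M21 (GRCm38).

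Members, lists and tests were chosen with earlier results of these data known. Genes with at least 100 reads in sum were fitted together with edgeR 4.0.16 (quasi-likelihood, robust, TMM, no covariates, two-sided, R 4.3.3), adjusted by Benjamini-Hochberg at 0.05; edgeR's common biological coefficient of variation was 0.825. Standard errors are log2 fold changes over the root of F. Mean log2 CPM of a group of genes used a prior count of 2. The steps were tested on simulated data. The regulators, 8 other members, every member past the study's rule and the 3 smallest p in each direction are given with values, the rest by range or log2 fold change, and of the other pathway genes the called ones or the 5 smallest p past the rule. Libraries are separate samples, but only mouse numbers tell whether they came from separate animals, so p may partly measure technical spread. Reads carry no molecular identifiers, so counting limits cover counting error only. Alternatives were DESeq2 1.42.0, limma 3.58.1 voom with quality weights, RLE and upper quartile scaling, no filter, filterByExpr, 4504h and 4504s summed, only libraries with over 1000 Xist reads, and each library left out. After seeing the data, a fit without KPF 4601, KPF 4504s and KPYYF 4449 was added. Figures used matplotlib 3.10.9.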

Additional observations from a re-analysis of the deposited data

Results flagged for a closer look

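Among the 46 members with reads, the KPF libraries of Gsta4 held 1 library far from the others: KPF 4504h had 37.2 CPM, where the next lowest had 170.3 CPM. On log2 CPM the gap was 0.663 of the range of the 6 libraries, above Dixon's 95% critical value for 6 samples. In CPM the same gap is a smaller share of the range, below that value, so the flag holds for the log2 scale only. Chance gives about 1 such flag in 20 groups.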

How the results depend on the processing

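Depth was alike across libraries, and the number of KPYYF libraries limits the precision. Of 46 members, 32 kept their sign in every alternative that tested them, which was 17 for Nqo1 and 18 for the others. Of the 11 lower by the study's rule, 4 passed it in every alternative and 7 in every fit without 1 library. The count of members called lower was 9 with the DESeq2 Wald test (Slc7a11, Gpx2, Gpx3, Gsta1, Gsta3, Gstm1, Gstm2, Mgst1 and Sod3), which called 6.75% of all genes lower against 0.794% with edgeR, 3 with no filter (Gpx3, Mgst1 and Sod3), where the median of all genes was -0.31, and 0 with limma-voom, with 4504h and 4504s summed, with only the libraries of over 1000 Xist reads and without KPF 4601, KPF 4504s and KPYYF 4449; leaving out 1 library gave 0 to 1. DESeq2 called 1 higher (Sod2), and leaving out 1 library gave 0 to 1. Calls over all genes, in either direction, also moved between the fits, from 1.10% in the main fit. They were 1.34% with no filter, 0.617% with limma-voom and 0.787% with 4504h and 4504s summed. With the Xist-rich libraries 0.283% were called, and 1.815% without KPF 4601, KPF 4504s and KPYYF 4449. Leaving out 1 library gave 0.166% (without KPYYF 4891) to 1.97% (without KPYYF 4449). Higher by the study's rule was 1 member with 4504h and 4504s summed (Prdx4) and 1 with the Xist-rich libraries (Sod2). Without 1 library it was 0 to 2. Lower by the rule were 8 to 14. DESeq2 gave 14, with Gclc, Gpx7 and Aifm2 added, where 12.04% of all genes were lower by it. With limma-voom 8 were lower, where 7.15% of all genes were. The share of all genes lower by it was 6.78% with the Xist-rich libraries and 7.875 to 10.51% without 1 library. The median log2 fold change stayed between -0.59 and -0.34. Other pathway genes called numbered 7 of 66 with DESeq2 (8.71% of all genes in either direction), 0 with limma-voom, 0 with the Xist-rich libraries and 0 to 2 without 1 library. Yap1 had -4.56 (adjusted p = 0.0771) with limma-voom and -5.78 to -4.31 without 1 library, losing its call without KPYYF 4891. Gpx3 had an adjusted p of 2.83e-06 to 0.139 and was called in 6 of 18 alternatives.

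Of the signs that turned, limma-voom gave Gpx8 0.49, Gstp1 0.36 and Fth1 0.22; summing 4504h and 4504s gave Gpx8 0.32; the Xist-rich libraries gave Nfe2l2 0.024, Gstp1 0.047, Srxn1 0.10, Sod1 0.034 and Fth1 0.38. Leaving out the 3 libraries rich in immune or acinar markers gave Nfe2l2 0.56, Gpx8 0.26, Srxn1 0.75, Sod1 0.066, Pgd 0.10, Tkt 0.50 and Fth1 0.20. Without 1 library, the range was -0.36 to 0.64 for Hmox1, -0.15 to 0.12 for Gstp1, -0.43 to 0.26 for Srxn1, -0.28 to 0.13 for Fth1, -0.53 to 0.50 for Gpx8, -0.44 to 0.19 for Nfe2l2, -0.62 to 0.060 for Mgst2, -0.27 to 0.0066 for Txn1, -0.35 to 0.032 for Sod1, -0.80 to 0.0025 for Gpx4, -0.20 to 0.46 for Gstm5 and -0.40 to 0.49 for Prdx5. The causes were not tested, and none of these members was called in any of the fits. No paired analysis was possible because no mouse number occurs in both groups.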

Other observations

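Other genes of these pathways had high or low levels in some Tm+Yap− libraries, and are given here after their values were seen. Glrx5, a mitochondrial glutaredoxin of iron-sulfur cluster assembly, was at 76.8 to 119 CPM in KPF libraries and at 142, 241 and 218 CPM in KPYYF 4449, 4891 and 4938, a log2 fold change of 0.92 (standard error 0.26, edgeR adjusted p = 0.110), with all KPYYF above all KPF libraries. Tfrc, the transferrin receptor, was at 81.8, 81.6 and 252 CPM in the KPYYF libraries against 57.1 to 88.8 CPM in KPF libraries, with KPYYF 4938 far above the others. Akr1b8, an aldo-keto reductase, was at 0.356, 45.3 and 194 CPM in the KPYYF libraries, from below the lowest to above the highest of the KPF libraries (26.7 to 184 CPM). Txnrd3 had 65.8, 60.9 and 13.4 CPM in KPYYF and 11.7 to 33.5 CPM in KPF libraries. Cybb, the oxidase subunit of phagocytes, was at 347 CPM in KPF 4601, the library with the highest immune sum, and at 28.1 to 73.2 CPM in the other KPF libraries.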
